A study of Homo sapiens with 6 samples.

Results

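Transcripts of a trio of cadherin genes were compared between PC9 lung adenocarcinoma cells and PC9-GR, a gefitinib-resistant line derived from them: CDH2 (N-cadherin), CDH13 (T-cadherin) and DSG3 (desmoglein 3). They were taken by gene symbol from the deposited expression table, and they are 3 of its 1705 genes. PC9 is an established human cell line labelled as epithelial, and both lines carry an EGFR exon 19 deletion. The 3 PC9 libraries came from the parental line. The 3 PC9-GR libraries came from cells that had been selected with gefitinib, an inhibitor of the EGFR kinase, at doses rising from 0.5 to 10 µM. PC9-GR was kept at 10 µM and then grown for 7 days in medium without the drug before RNA was extracted. The 3 libraries of each line are labelled as replicates 1 to 3 of 1 line, and the labels do not say whether PC9-GR is a single clone. The table lists only genes that the authors had selected as changed, since the smallest absolute log2 ratio in it is 1.0002. The tests below therefore use genes already chosen on the same 6 libraries and are not independent evidence of a change. Sequencing depth is unknown, because the values are FPKM (fragments per kilobase of transcript, scaled to library depth) without counts. In bulk RNA, more cells with a transcript and more of the transcript per cell cannot be told apart.

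Cadherins are calcium-dependent adhesion proteins whose extracellular repeats join neighbouring cells. N-cadherin is a classical cadherin with a cytoplasmic tail that binds catenins and so reaches the actin cytoskeleton, and it is typical of neural and mesenchymal cells. Epithelial cells that take on mesenchymal features often gain it. T-cadherin has no cytoplasmic tail, is held in the membrane by a glycosylphosphatidylinositol anchor and binds adiponectin. Desmoglein 3 is a desmosomal cadherin of stratified epithelia, where desmosomes connect keratin filaments between cells.

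CDH2 (ENSG00000170558) spans positions 25530929 to 25757410 of chromosome 18 by the table's coordinates, whose genome build is not named. DSG3 (ENSG00000134757) lies on the same chromosome at 29027757 to 29058665, and CDH13 (ENSG00000140945) lies on chromosome 16 at 82660407 to 83841439. All 3 are protein-coding, and no other listed gene shares their loci. The span from start to end was 226481 bp for CDH2 and 30908 bp for DSG3, the same as their gene lengths in GENCODE 29. For CDH13 it was 1181032 bp, against 1173838 bp in GENCODE.

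The sequences just upstream of transcription starts are shown for the 2 chromosome 18 members because listed regulators of cadherins, described below, bind E-boxes, written CANNTG. RefSeq promoters on GRCh38.p14 were matched by symbol for 2 of 3 members, CDH2 with 2 starts and DSG3 with 1. CDH13 was not matched. The 250 bases before the inner CDH2 start (chr18:28036642-28036891, minus strand) and before the DSG3 start (chr18:31447491-31447740, plus strand) read as follows, 5′ to 3′, with E-boxes in capitals.
CDH2 inner start: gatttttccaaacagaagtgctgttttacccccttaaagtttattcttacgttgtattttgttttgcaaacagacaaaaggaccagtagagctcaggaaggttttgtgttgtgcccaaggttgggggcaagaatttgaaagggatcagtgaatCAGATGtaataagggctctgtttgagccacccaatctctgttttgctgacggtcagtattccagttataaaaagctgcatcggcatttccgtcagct
DSG3 start: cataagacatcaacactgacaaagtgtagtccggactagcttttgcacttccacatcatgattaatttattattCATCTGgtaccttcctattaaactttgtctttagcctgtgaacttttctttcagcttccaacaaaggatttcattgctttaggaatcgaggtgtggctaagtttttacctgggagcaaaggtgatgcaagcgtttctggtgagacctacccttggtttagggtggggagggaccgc
Each of these windows held 1 E-box, and CANNTG, which reads alike on both strands, occurred in 61.8% of 35116 RefSeq windows of the same length. The window before the outer CDH2 start, which lies in a GENCODE first exon and is not printed, held 0. The ZEB and SNAI form CACCTG, or CAGGTG on the other strand, is a subset of CANNTG. It was in 17.5% of all windows and in none of the 3 windows of the members. The outer CDH2 window was rich in CpG, with 17 CpG and 66% GC, against 4 CpG and 42% GC at the inner start and 4 CpG and 42.8% GC at DSG3. The median over all windows was 11 CpG and 58% GC. These are descriptions of letters and say nothing about binding.

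CDH2 was expressed at a low level in PC9 and was about 10 times as high in PC9-GR. The PC9 libraries measured 2.1627, 2.331 and 2.0612 FPKM, and the PC9-GR libraries 19.9249, 23.8934 and 25.4138 FPKM. The groups lay far apart, and the spread within each was small. The means were 2.18 ± 0.136 (SD, n = 3) and 23.1 ± 2.83 FPKM (SD, n = 3), a 10.6-fold difference. Taking the closest and the most distant pair of libraries, the fold ran from 8.55 to 12.3. On the scale log2(FPKM + 1) CDH2 rose by 2.91 with a standard error of 0.127 (limma adjusted p = 9.83e-08). In the authors' deposited table its log2 ratio is 3.41 and its q-value 0.000285. CDH2 moved from places 732 to 764 in order of FPKM among the 1705 listed genes in PC9 to places 138 to 172 in PC9-GR.

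CDH13 went from a trace in PC9 to a level of about 10 FPKM in PC9-GR. The PC9 libraries measured 0.0589, 0.3714 and 0.1814 FPKM, and the PC9-GR libraries 9.7303, 10.7089 and 10.3062 FPKM. The resistant libraries were close to each other, whereas the parental values were scattered over a range well below 1 FPKM. The means were 0.204 ± 0.157 (SD, n = 3) and 10.2 ± 0.492 FPKM (SD, n = 3), so the SD was 77.2% of the mean in PC9 and 4.8% in PC9-GR. The ratio of means was 50.3, and it was 85.3 without PC9 replicate 2. Single pairs of libraries gave folds from 26.2 to 181.8, so the direction was shared by every pair and the size was poorly fixed by the parental values. CDH13 rose by 3.23 on the log2(FPKM + 1) scale with a standard error of 0.142 (limma adjusted p = 9.83e-08). With a pseudocount of 0.1 that difference was 5.23. By the authors' deposited log2 ratio of 5.57, CDH13 was the 28th highest of the listed genes, and CDH2 the 101st.

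DSG3 stayed near or below 1 FPKM in both lines and was higher in PC9-GR. It measured 0.4176, 0.3676 and 0.4201 FPKM in PC9, and 0.7864, 1.1976 and 1.0455 FPKM in PC9-GR. The lowest resistant library lay above the highest parental one. The means were 0.402 ± 0.0296 (SD, n = 3) and 1.01 ± 0.208 FPKM (SD, n = 3), a 2.51-fold difference, with 1.87 to 3.26 for single pairs. Only 2 of 6 libraries reached 1 FPKM, so DSG3 fell below the filter and was compared with a two-sided exact permutation test. The exact permutation p was 0.1, the smallest that 3 against 3 libraries allow, for a difference of 0.51 on the log2(FPKM + 1) scale. Without the filter, limma called DSG3 higher (adjusted p = 0.0019). In the authors' deposited table its log2 ratio is 1.36 and its q-value 0.000285.

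Of the 1207 genes that passed the filter, limma called 48.4% higher and 51.3% lower, 99.7% in all. Without the filter 49.6% of the 1705 listed genes were called higher and 47.5% lower. PC9-GR lay wholly above PC9 for 48.3% of listed genes and PC9 above PC9-GR for 46.6%, so the groups were apart for 94.8%. The PC9-GR replicate 1 library was the lowest resistant one for each of the 3 members. A call or a gap between groups is thus the rule in this table, and the members are placed in it below by size of change. The absolute authors' log2 ratio was smaller than that of CDH2 for 90.4% of listed genes, smaller than that of CDH13 for 96.2%, and smaller than that of DSG3 for 36.1%.

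**Figure D1:**
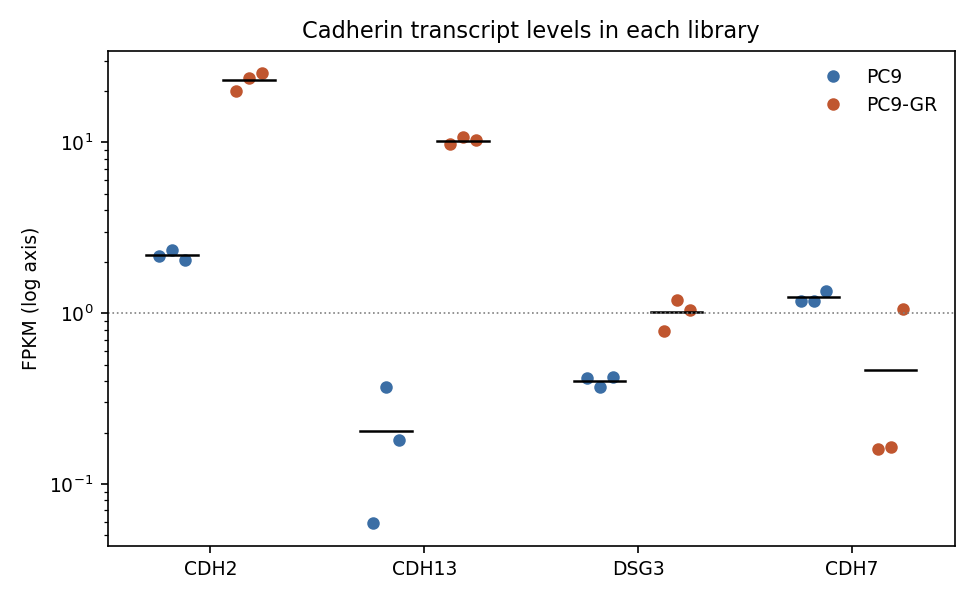
FPKM of CDH2, CDH13, DSG3 and CDH7 in each of the 3 PC9 and 3 PC9-GR libraries, on a log axis. Points are libraries, bars are group means and the dotted line marks 1 FPKM; CDH2, CDH13 and DSG3 have all PC9-GR points above all PC9 points, and CDH7 has 1 PC9-GR point close to PC9.

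CDH7, a classical cadherin of the nervous system, is the remaining member of the cadherin and desmosomal cadherin lists that the table holds, and it was lower in PC9-GR. It measured 1.1835, 1.1837 and 1.3403 FPKM in PC9, and 0.1605, 0.164 and 1.0614 FPKM in PC9-GR. PC9-GR replicate 3 stood apart from the other two resistant libraries and close to the parental ones. The fall of 2.68-fold (limma adjusted p = 0.00875) became 7.62-fold without that library (limma adjusted p = 4.2e-05). Scaled to equal library totals, CDH7 was no longer called (limma adjusted p = 0.164). Library totals here and below are the summed FPKM of the 1705 listed genes. They were 28346 to 30541 in PC9 and 16705 to 17114 in PC9-GR, over genes selected as changed, so this scaling is not a correction for depth.

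The order of these 4 cadherins by FPKM, a measure per transcript length, differed between the lines. In PC9 it was CDH2, CDH7, DSG3 and CDH13, and the last of these could not be told from DSG3, because CDH13 at 0.3714 FPKM passed DSG3 at 0.3676 FPKM in replicate 2. In PC9-GR it was CDH2, CDH13, DSG3 and CDH7, where CDH7 at 1.0614 FPKM passed DSG3 at 1.0455 FPKM in replicate 3. CDH2 made up 51.5% to 56.6% of the summed FPKM of the 4 genes in PC9 and 65.1% to 67.2% in PC9-GR. CDH13 made up 1.54% to 8.73% in PC9 and 27.2% to 31.8% in PC9-GR, and CDH7 27.8% to 33.5% and 0.456% to 2.81%.

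The ratio between members was compared within libraries, where a scaling factor common to all genes cancels. CDH13 was 0.0272 to 0.159 of the CDH2 level in PC9 and 0.406 to 0.488 of it in PC9-GR. The mean log2 ratio of CDH13 to CDH2 was higher by 2.62 in PC9-GR. DSG3 was 0.158 to 0.204 of CDH2 in PC9 and 0.0395 to 0.0501 of it in PC9-GR, a mean log2 ratio that fell by 2.08. CDH13 went from 0.141 to 1.01 of the DSG3 level in PC9 to between 8.94 and 12.4 times that level. For each of these 3 pairs the groups did not overlap, and a two-sided exact permutation of the libraries returned p = 0.1 (0.1 after Benjamini-Hochberg adjustment over the 3 pairs), the smallest possible value.

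Among the listed genes of chromosome 18, CDH2 and DSG3 stood at the edge of a long stretch of lower ones. Of 108 listed genes there, 10 had a higher authors' ratio and 98 a lower one. RP11-838N2.5, CABYR, CDH2 and DSG3 follow each other in the order of listed genes and had higher ratios. They are not close together. By locus start RP11-838N2.5 lies at -22.2 Mb, CABYR at -3.81 Mb and DSG3 at 3.50 Mb from CDH2. RP11-838N2.5 was below the filter, with PC9 replicate 2 at 0.001 FPKM, and its authors' q-value is 0.0634. The 21 listed genes that follow, from GAREM and RP11-344B2.2 at a shared locus to SETBP1, had lower ratios, and the median of their log2 values was -1.41. The end of the DSG3 locus is 0.54 Mb from the first of them. Before CDH2 the table lists only 4 genes, of which CABYR and the non-coding RNAs RP11-838N2.5 and RP11-161I6.2 had a higher ratio. The fourth, the pseudogene CBX3P2, was lower in the authors' table with a log2 ratio of -2.76. Its PC9 libraries read 0.8899, 12.2564 and 0.3603 FPKM, and without the second the PC9-GR to PC9 fold was 1.02. CBX3P2 and RP11-161I6.2 start at -22.9 and -23.6 Mb from CDH2, so CABYR is the only listed gene near CDH2 on that side.

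Single listed genes on either side of DSG3 show this turn in the order of listed genes. CABYR, a calcium-binding protein of the sperm flagellum, measured 9.5075, 13.5036 and 9.8226 FPKM in PC9, and 24.687, 26.4281 and 22.8121 FPKM in PC9-GR. It rose 2.25-fold (limma adjusted p = 3.4e-05). GAREM, an adaptor of growth factor receptor signalling and the first protein-coding gene listed after DSG3, read 4.056, 4.0169 and 4.7594 FPKM in PC9. In PC9-GR it read 1.8775, 1.5082 and 1.7885 FPKM, a fall of 2.48-fold (limma adjusted p = 7.47e-05). Its groups did not overlap, and it shares a locus with RP11-344B2.2, so reads of the pair may be split. Further along, the zinc finger genes ZNF271 and ZNF24 fell 2.40-fold and 2.73-fold. GALNT1, which starts O-linked glycosylation of proteins, fell from 106.7 ± 0.569 to 44.2 ± 4.11 FPKM. ZNF397 fell 1.96-fold but was not called once libraries were scaled to equal totals (limma adjusted p = 0.36), and it shares a locus with RP11-158H5.7.

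Of the 10 listed genes after CDH2, 7 were tested and all 7 were called lower, against 51.3% lower in the whole table. DSG3 was the single gene of those 10 with a higher authors' ratio. Lower calls made up 93.3% of the 89 tested genes of chromosome 18. The listed genes after CDH2 and DSG3 were thus close to the rest of the chromosome. Those before them were not. The 2 genes tested before CDH2 and the 3 tested before DSG3, CDH2 among them, were called higher, against 6.74% of the tested genes of chromosome 18. Of the 10 listed genes after DSG3, 7 were tested and called lower, and all 10 had PC9 above PC9-GR in every library, against 46.6% of listed genes. With equal library totals the count fell to 6 of 7 for each member. The median log2 difference of the tested genes was -1.16 for the 10 after CDH2 and for the 10 after DSG3, which are largely shared genes, and -0.63 over the whole table.

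**Figure D2:**
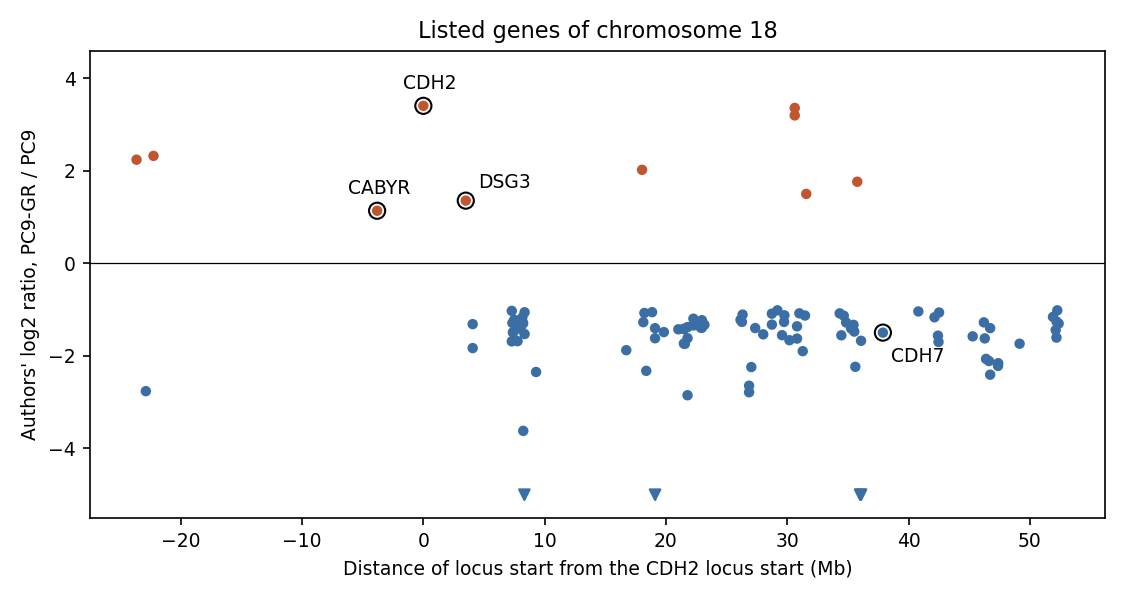
Authors' log2 ratio of PC9-GR to PC9 for the 108 listed genes of chromosome 18, against the distance of the locus start from the start of CDH2 in Mb. CABYR, CDH2, DSG3 and CDH7 are circled, triangles at the lower edge stand for 4 genes below -5, and the points right of DSG3 lie below 0 except for 5, whereas CABYR, CDH2 and DSG3 lie above it.

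The difference between each member and its neighbours was then tested as 1 value per library, the member's log2(FPKM + 1) minus the mean over up to 10 listed genes on each side. CDH2 lay below its 14 neighbours in PC9, at -0.75, -0.95 and -0.79, and above them in PC9-GR, at 2.36, 2.54 and 2.63. The groups were separate, and the difference changed by 3.34, while the neighbours' mean itself fell by 0.43. DSG3 lay below its 15 neighbours in every library, at -1.85, -2.19 and -1.85 in PC9 and at -1.30, -1.08 and -1.18 in PC9-GR. The change for DSG3 was 0.78, and the neighbours' mean fell by 0.26. Both exact permutation tests (two-sided) gave p = 0.1, the smallest value possible. CDH2 and DSG3 each count among the other's neighbours. With only neighbours above the filter, which leaves out CBX3P2, the change was 3.50 for CDH2 and 0.75 for DSG3. Against all other listed genes of chromosome 18, the change was 3.94 for CDH2 and 1.52 for DSG3.

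**Figure D3:**
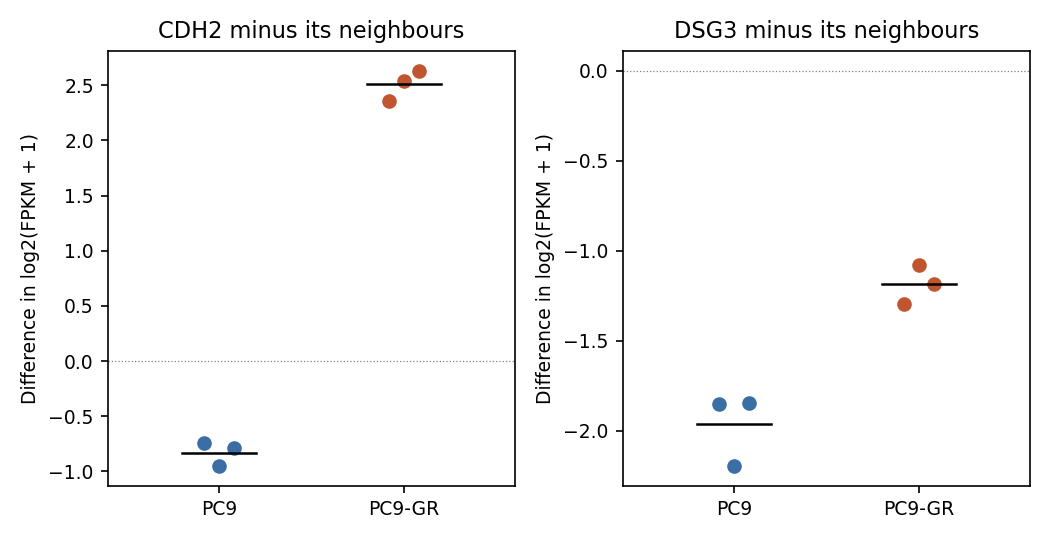
Difference in log2(FPKM + 1) between CDH2 (left) or DSG3 (right) and the mean of its listed chromosome 18 neighbours, with 1 point per library, a bar at each group mean, a dotted line at 0 and a separate scale for each panel. CDH2 moves from -0.75 or lower in PC9 to 2.36 or higher in PC9-GR, and DSG3 stays below 0 in all 6 libraries but is nearer to it in PC9-GR.

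No listed gene lies between CDH2 and DSG3. GENCODE 29 places 5 protein-coding genes between them on GRCh38, namely the desmosomal cadherins DSC3, DSC2, DSC1, DSG1 and DSG4, and 0 of these are in the table. Between DSG3 and GAREM (GAREM1 in GENCODE) it places DSG2, TTR, B4GALT6, SLC25A52, TRAPPC8 and RNF125, and 0 of these 6 are in the table either. The same holds for 10 genes between CABYR and CDH2. The levels of these genes were not analysed here. The turn between DSG3 and GAREM is therefore one in the order of listed genes and cannot be placed more finely. CDH7 lies 37.9 Mb beyond CDH2 and belongs to the last stretch of 25 lower genes.

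The other genes of chromosome 18 with a higher authors' ratio are scattered among lower ones. ALPK2, an alpha kinase, and RP11-1151B14.4 at the same locus rose 9.68-fold and 10.2-fold from means of 0.312 ± 0.0723 and 0.188 ± 0.0189 FPKM. CCBE1, a secreted protein needed for lymphatic vessel growth, rose 2.81-fold to 4.78 ± 0.705 FPKM. PSTPIP2 and SERPINB4 were under the filter, at 0.913 ± 0.0909 and 0.484 ± 0.318 FPKM in the resistant line. PSTPIP2 was called higher when no filter was applied (limma adjusted p = 0.000578). SERPINB4 was not (limma adjusted p = 0.0566), and its groups overlapped, with 0.1212 FPKM in PC9-GR replicate 1 and 0.2018 FPKM in PC9 replicate 2. Leaving out PC9 replicate 3 moved the ratio of means of PSTPIP2 from 3.97 to 6.02. Of these genes CDH2 had the largest authors' log2 ratio on the chromosome.

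CDH13 has a mixed neighbourhood on chromosome 16, where 33 of 55 listed genes (60%) had a higher authors' ratio, against 51.1% of the whole table. All 4 listed genes after it had a higher ratio, and 3 of them were called higher. That compares with 48.4% of all tested genes and 60% of the 40 tested genes of chromosome 16. OSGIN1, a growth inhibitor responsive to oxidative stress, rose 1.98-fold from 6.05 ± 1.46 to 11.96 ± 1.99 FPKM. The locus given for OSGIN1 spans 67207 bp and begins 91.3 kb past the end of the CDH13 locus. ZNF469 rose 3.94-fold, and MVD, an enzyme of cholesterol synthesis, rose 2.28-fold. AC137934.1 was not called (limma adjusted p = 0.187), with 4.02 ± 2.56 in PC9 and 11.97 ± 9.29 FPKM in PC9-GR. Its PC9-GR replicate 3 read 1.3901 FPKM against 18.8064 and 15.7045 in the other resistant libraries, and without it the gene was called higher (limma adjusted p = 0.000395). Of the 10 listed genes before CDH13, 8 were tested, with 4 called higher and 4 lower. On that side PLCG2, a phospholipase, rose 2.36-fold but was not called under quantile normalization (limma adjusted p = 0.0516). CHST6, a sulfotransferase of keratan sulfate, fell 3.95-fold, FA2H, a fatty acid hydroxylase, fell 3.02-fold, and RP11-77K12.4, which shares the CHST6 locus, fell 3.14-fold. The lincRNA RP11-314O13.1 was under the filter at 0.662 ± 0.245 and 0.337 ± 0.115 FPKM. No listed neighbour of CDH13 changed as much as CDH13 itself.

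Among the wider cadherin superfamily, gamma protocadherins and the large cadherin FAT4 rose, and PCDH1 and CELSR1 fell. The 3 lists of cadherins, desmosomal cadherins, and protocadherins with large cadherins held 113 genes, of which 15 are in the table. The filter passed 9 of these, including CDH2 and CDH13, and 6 were called higher and 3 lower, against 48.4% and 51.3% of all genes tested, with a median log2 difference of 1.06 against -0.63 for all genes tested. Without the filter all 15 were called, 12 higher and 3 lower, against 49.6% higher and 47.5% lower of the 1705 listed genes. The 12 were CDH2, CDH13 and DSG3 themselves, gamma protocadherins of a shared locus, and DCHS2, FAT4 and PCDH18. The 3 lower ones were CDH7, CELSR1 and PCDH1. These counts and the median are thus not made of separate genes and do not show a rise of the superfamily.

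Of the protocadherin list, which mediates recognition between cells, 4 of the 6 tested genes were called higher, against 48.4% of all tested genes. PCDHGC3 rose from 4.06 ± 0.177 to 9.55 ± 0.753 FPKM, PCDHGA11 rose 4.08-fold and PCDHGA10 4.57-fold. These and 3 more gamma genes share 1 locus and common exons, so their values are uncertain. FAT4, a large cadherin of planar polarity and Hippo signalling, rose 4.97-fold from 0.332 ± 0.0753 to 1.65 ± 0.337 FPKM. PCDH1, a protocadherin of airway epithelium, fell 2.63-fold from 25.7 ± 3.43 FPKM. CELSR1, a planar polarity cadherin, fell 2.03-fold, and it was not called after scaling to equal library totals (limma adjusted p = 0.174).

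Among transcription factors that govern cadherin choice, ZEB1, ZEB2 and SNAI1 rose, and OVOL1 and TCF4 fell. Of 18 such genes 5 are in the table, with 3 called higher and 2 lower, a split close to the 48.4% and 51.3% of all tested genes. ZEB1 and ZEB2, repressors of epithelial cadherin genes, rose from 0.907 ± 0.128 to 5.49 ± 0.633 and from 0.321 ± 0.217 to 4.07 ± 0.746 FPKM. The 12.7-fold rise of ZEB2 was 20.2-fold without PC9 replicate 3. SNAI1, another such repressor, rose 2.81-fold to 4.09 ± 0.0911 FPKM. OVOL1, which maintains epithelial identity, fell 3.44-fold. TCF4, an E-box binding factor, fell 2.57-fold and lies on chromosome 18 itself.

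Among signalling partners of N-cadherin, FGFR1, PDGFRB, GJA1, SLIT2 and SRC rose. Of the 21 genes in that list 6 are in the table, and the 5 tested were called higher, against 48.4% of all tested genes. FGFR1, a receptor kinase that N-cadherin can bind, read 14.1 ± 1.15 in PC9 libraries and 37.9 ± 4.48 FPKM in the resistant ones. PDGFRB rose from 0.0948 ± 0.0423 to 3.28 ± 0.78 FPKM, and the gap junction protein GJA1 from 0.425 ± 0.166 to 2.46 ± 0.298 FPKM. SLIT2, a guidance ligand, rose 2.85-fold and the kinase SRC 2.33-fold. ROBO2, a receptor of SLIT ligands, was below the filter at 0.897 ± 0.24 and 0.226 ± 0.069 FPKM. Of 21 proteases in the cadherin-shedding list 3 are in the table, and all were called higher, against the same 48.4%: MMP9 53.0-fold, MMP7 11.7-fold and MMP14 2.40-fold. MMP7 varied in PC9-GR, at 4.48 ± 2.50 FPKM.

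For T-cadherin, 1 of 10 listed partners is in the table. The integrin ITGB3 was below the filter at 0.157 ± 0.0952 in PC9 and 0.845 ± 0.182 FPKM in PC9-GR, with a ratio of means of 5.38, or 8.25 without PC9 replicate 1. Of 27 catenins and adherens junction linkers 0 are in the table.

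Keratins from the list of desmosome genes were lower in PC9-GR. Of the 15 genes in that list 5 are in the table, and the 4 tested, all keratins, were called lower, against 51.3% of all tested genes. The desmosomal plaque genes of the list, such as JUP, DSP and the plakophilins, are not among the listed genes. KRT5, a basal keratin, fell from 90.8 ± 20.7 to 16.6 ± 3.99 FPKM. KRT13, a keratin of mucosal stratified epithelia, fell 58.3-fold and KRT6B 4.63-fold. KRT6A, a keratin of activated epithelia, fell 2.36-fold. CDSN, a corneodesmosome protein, was below the filter at 0.380 ± 0.038 and 0.152 ± 0.0497 FPKM. DSG3 is the single one of 7 desmosomal cadherins in the table.

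**Figure D4:**
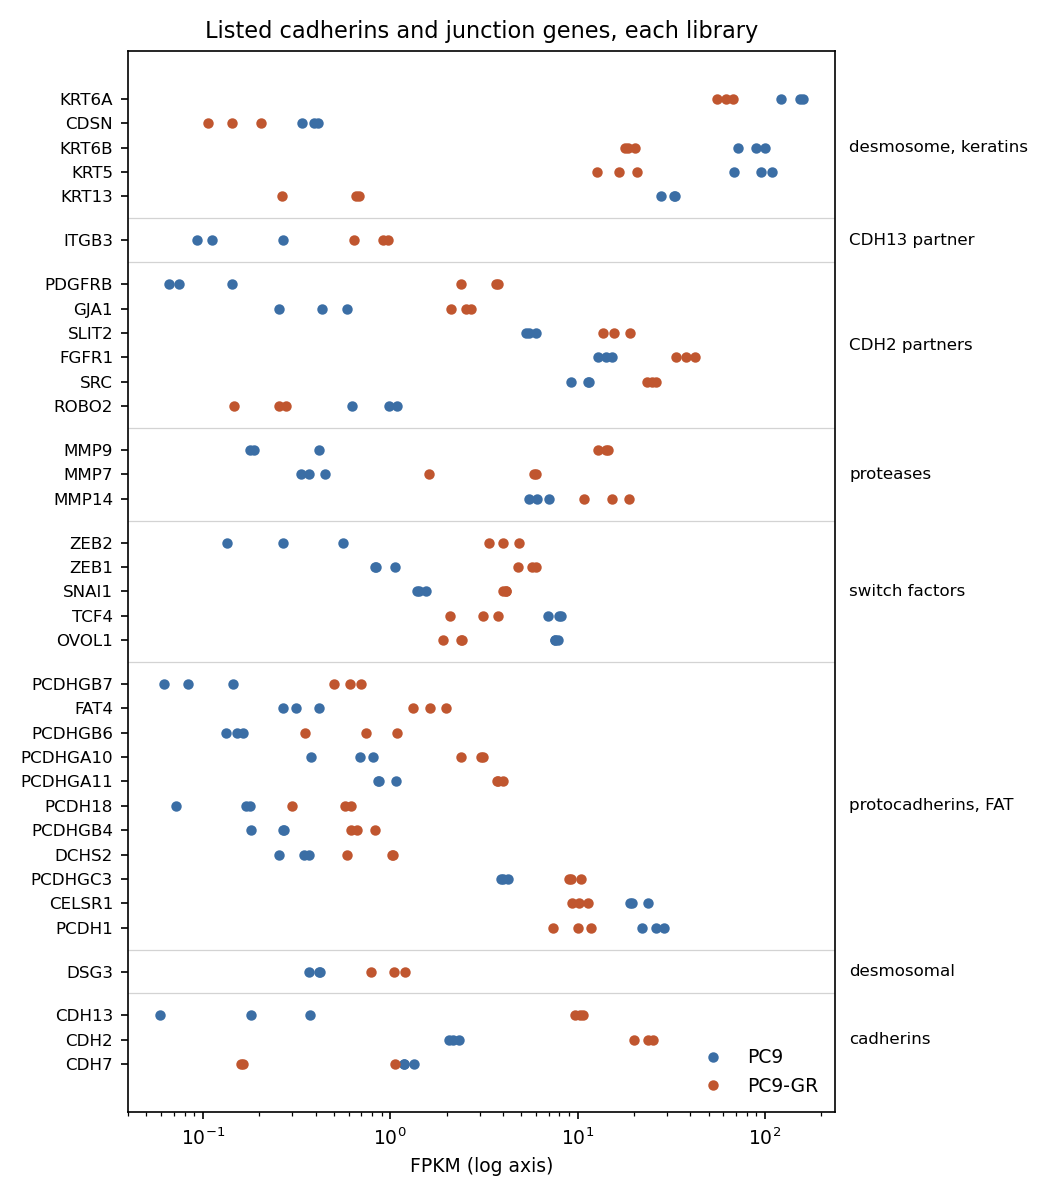
FPKM per library, on a log axis, of the listed genes of 8 lists: cadherins, desmosomal cadherins, protocadherins with large cadherins, transcription factors of cadherin choice, proteases, partners of CDH2 and of CDH13, and desmosome genes with keratins. Each point is 1 library, and PC9-GR lies right of PC9 for CDH2, CDH13, DSG3, ZEB1, ZEB2 and MMP9 and left of it for CDH7 and the keratins.

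Genes with the most similar level in all 6 libraries were found by the smallest of the largest absolute differences in log2(FPKM + 1). For CDH2 these were HTRA3, a secreted protease (largest difference 0.22), RP11-124N14.3 (0.32) and TNIP3, an inhibitor of NF-kB signalling (0.45). HTRA3 went from 2.33 ± 0.384 to 23.0 ± 0.321 FPKM. For CDH13 they were LINC00942 (0.19), the tubulin TUBB4A (0.32) and MMP9 (0.53), and LINC00942 went from 0.265 ± 0.0982 to 10.3 ± 0.663 FPKM. For DSG3 they were ENKUR, a protein of motile cilia and sperm (0.13), the immunoglobulin superfamily member IGDCC4 (0.15) and HLA-DQB1 (0.16), and each of these was below the filter as DSG3 was. The measure uses level and change together, over 6 libraries in 2 groups.

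Markers of the labelled cell type and of others were checked in the same table. Of 20 epithelial markers only CLDN1 is listed, and it fell 3.34-fold from 86.8 ± 11.03 FPKM, while epithelial cadherin (CDH1) is among the 19 not listed. Of 10 endothelial and 10 neural markers 0 are listed. Of 13 fibroblast and muscle markers ACTA2, DES and PDGFRB are listed, with a sum of 1.03 to 1.21 FPKM in parental and 6.13 to 9.64 FPKM in resistant libraries. Of 10 haematopoietic markers 5 are listed, summing to 20.5 to 24.6 FPKM in parental and 46.2 to 57.0 FPKM in resistant libraries, and most of that sum was CD68, a lysosomal protein, at 18.6 ± 1.05 and 38.4 ± 3.61 FPKM. CORO1A, an actin regulator, read 2.17 ± 0.421 and 4.22 ± 1.13 FPKM. The integrins ITGAM and ITGAX went from 0.570 ± 0.583 to 7.25 ± 2.12 and from 0.119 ± 0.0281 to 2.83 ± 0.187 FPKM. CD68, CORO1A, ITGAM and ITGAX were called higher, as were 48.4% of all tested genes. LYZ (lysozyme) went the other way and was below the filter, at 1.09 ± 0.459 in PC9 and 0.142 ± 0.125 FPKM in PC9-GR, where replicate 1 was at the table's floor of 0.001. The part of these markers in the cadherin results was not tested. Between 987 and 1002 listed genes reached 1 FPKM in the PC9 libraries and between 1116 and 1150 in the PC9-GR libraries, and the summed FPKM of the table was 28346 to 30541 and 16705 to 17114.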

How the data were processed

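The authors used TopHat and Cufflinks, per the submitters' processing notes, for which neither version, build nor annotation is stated. Each library has an FPKM in the deposited table, as does each group. Per the file headers, the authors also give for every gene a ratio (PC9-GR over PC9) with its log2, and the significance as p-value and q-value. Coordinates are printed as the table gives them.

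FPKM was compared on the scale log2(FPKM + 1), on which changes of low genes appear smaller. Genes with 1 FPKM or more in 3 of 6 libraries were tested (1207, leaving out 498), two-sided, with limma 3.58.1 in R 4.3.3, with a trended variance prior and no covariate. Benjamini-Hochberg adjustment ran over all genes tested, and genes were called under 0.05. Folds are ratios of mean FPKM. Exact permutation tests used scipy 1.17.1 in Python 3.11.15. The limma step was tested on simulated data. Neighbours are listed genes ordered by locus start.

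The members and the 14 gene lists were chosen with earlier results of these data known. Named genes are the members, 5 listed neighbours on each side of each, other chromosome 18 genes with a higher ratio, the 3 most similar genes per member, every listed cadherin and desmosomal cadherin, and up to 3 called genes per direction in the other lists. Others named were chosen after their values were seen. Alternatives covered pseudocount, filter, scaling, variance trend, replicate block and leaving out each library. Scaling to equal library totals used the summed FPKM of the listed genes, not of all genes.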

Additional observations from a re-analysis of the deposited data

How the results depend on the processing

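CDH2 and CDH13 were called higher in all 15 alternatives, with log2 differences from 2.65 to 3.58 and from 3.04 to 5.90. DSG3 was higher in all 13, from 0.30 (quantile normalization) to 1.29 (pseudocount of 0.01), and limma called it higher without the filter, with the same difference of 0.51 with and without the replicate block (adjusted p = 0.0057 with it). Same-numbered libraries had deviations correlated at -0.098, 0.082 and 0.16, so the numbers were not taken as pairs, and the replicate block moved the counts of calls to 586 higher and 619 lower from 584 and 619. With the replicate block AC137934.1 was called higher (adjusted p = 0.0425). Both members kept their direction relative to chromosome 18 neighbours in all 10 alternatives, from 2.98 to 3.94 for CDH2 and from 0.45 to 1.52 for DSG3. With a filter at 5 FPKM the calls were 234 higher and 393 lower, those of the cadherin superfamily 3 higher, those of the CDH2 neighbours 1 higher and 4 lower, and those of the DSG3 neighbours 4 lower. Without a filter the superfamily had 12 higher and the CDH2 neighbours 4 higher. With equal library totals the superfamily had 1 lower, and the median of all tested genes moved by 0.47 on the log2 scale (-0.14 with median-ratio scaling), leaving 586 higher and 433 lower. Leaving out 1 library gave 2.84 to 3.01 for CDH2, 3.14 to 3.33 for CDH13 and 0.45 to 0.60 for DSG3. Depth is unknown, which limits what can be said of DSG3 and of CDH13 in PC9.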
